A study of Mus musculus with 12 samples.

Results

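The response of Parp14 knockout macrophages to lipopolysaccharide (LPS) was taken as the difference between KO cells treated with LPS for 2 h and untreated KO cells. RAW 264.7 is a mouse macrophage line derived from a tumour of BALB/c mice, and the KO cells carry the genotype Parp14 -/- in that line. The 4 KO libraries, 2 with LPS and 2 untreated, were chosen from the 12 libraries of the series by their labels. Set beside them were 2 wild-type (WT) libraries with LPS for 2 h and 2 untreated WT libraries of the same line. The other 4 libraries, WT cells with a Jak inhibitor alone or with LPS and the inhibitor, entered the estimate of the spread and no comparison described here. All cells were grown in the same medium. The labels give neither the dose and source of LPS nor the number of KO clones. They name no separate cultures either, so the p-values reflect the spread between libraries alone, and this may be technical.

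LPS is a component of the outer membrane of Gram-negative bacteria. It is handed by CD14 to the receptor TLR4, which signals from the cell surface through MyD88 to NF-kB and MAP kinases, and from endosomes through TRIF to IRF3. NF-kB and MAP kinases switch on cytokines, chemokines and their own inhibitors, and IRF3 with NF-kB switches on interferon beta. Secreted interferon beta then acts through its receptor and Jak kinases on a second wave of interferon-stimulated genes. PARP14 is a mono-ADP-ribosyltransferase whose own gene is interferon-inducible.

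The labelled genotype was checked first. Parp14 (chromosome 16, 35832874 to 35871544, minus strand) stood at 34.95 and 40.54 CPM (its reads scaled to the gene reads of the library) in KO cells with LPS, against 10.0 and 11.97 CPM in untreated KO cells. In WT cells it stood at 315 and 419 CPM with LPS, against 76.4 and 99.7 CPM untreated. Every KO library was thus below every WT library, and reads over the gene remained in KO cells. LPS raised these remaining reads by 1.69 on the log2 scale (SE 0.058, adjusted p = 3.14e-12), and those of WT cells by 2.04. The labels do not say which part of the gene was deleted, and a gene-level count cannot show which part was read.

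The KO libraries held 35.9 to 42.7 M reads in genes. Of 24421 gene symbols 10899 had at least 1 CPM in at least 2 libraries and were tested. Changes are differences of log2(CPM + 1) from limma with the replicate number as a block, with a standard error (SE) and a Benjamini-Hochberg adjusted p over all tested genes. A gene is called at an adjusted p under 0.05, and 2-fold means a called change of 1 or more on this scale, which understates the ratio of genes near or under 1 CPM. The markers fitted the label of the cells: macrophage markers summed to 12040 and 13170 CPM in KO cells with LPS and 13110 and 15430 CPM in untreated KO cells. The lysozyme gene Lyz2 alone held 6051 and 7257 CPM with LPS and 7880 and 9866 CPM untreated. Lymphocyte markers summed to 0.584 and 0.632 CPM with LPS and 0.351 and 0.366 CPM untreated, stromal, epithelial and endothelial markers to 0.501 and 0.398 CPM and 0.201 and 0.523 CPM, and neutrophil and mast cell markers to 0.362 and 0.421 CPM and 0.552 and 0.523 CPM. No gene of these 3 lists passed the minimum level. In bulk RNA a change in the number of cells of a kind and a change of RNA per cell cannot be told apart.

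After 2 h of LPS the KO cells held far more RNA of secreted inflammatory mediators and of the inhibitors of their own signalling, and less of cell cycle genes. Of the tested genes 1996 (18.3%) were called higher and 6781 (62.2%) lower. At least 2-fold higher were 524 genes (4.81%) and at least 2-fold lower were 1239 genes (11.4%). For all of them the 2 libraries with LPS did not overlap the 2 untreated ones. The same libraries chose these genes, so this is no added support for the calls. The genes that were 2-fold higher took 12.4 and 12.5% of all gene reads in KO cells with LPS, against 2.31 and 2.66% in untreated KO cells. The genes that were 2-fold lower took 2.49 and 2.54%, against 6.81 and 6.77%.

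The median of all tested genes was -0.29, and rescaling the libraries by the median of ratios moved it to -0.03. That rescaling changed the split of calls to 3857 higher and 4383 lower. The genes 2-fold higher then numbered 677 and included all 524. The genes 2-fold lower numbered 685, all among the 1239, and every one of the 1239 was still called lower at some size. A small decrease near the median of -0.29 therefore depends on the scaling, and the groups below are read against it. The counts of called members in every list below likewise stand against 18.3% of all tested genes called higher and 62.2% called lower. For the 2-fold counts these shares are 4.81% and 11.4%.

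**Figure D1:**
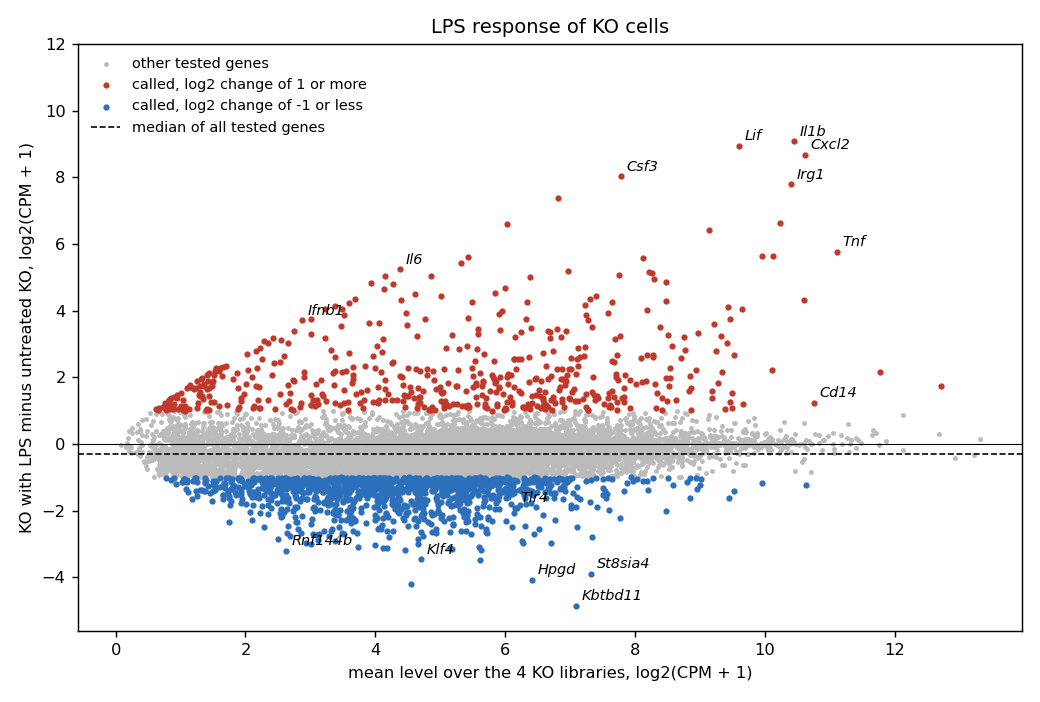
Each point is 1 of 10899 tested genes, with the mean level over the 4 KO libraries on the x axis and the change of KO cells with LPS minus untreated KO cells on the y axis, both on the log2(CPM + 1) scale. Red and blue points are called genes with a change of 1 or more (524) or -1 or less (1239), the dashed line is the median of -0.29, and increases reach 9.09 where decreases reach -4.85.

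The size of the changes was lopsided. Among the genes 2-fold higher, 313 changed by 1 to 2, 162 by 2 to 4, 40 by 4 to 6 and 9 by more than 6 on the log2 scale. Among the genes 2-fold lower, 1075 changed by -1 to -2, 147 by -2 to -3 and 17 by more than 3 downward. Of the genes 2-fold higher 115 averaged under 1 CPM in untreated KO cells, and 10 had no read there. The 2 replicate pairs of libraries differed in their change by a median of 0.19 for the genes 2-fold higher, 0.12 for those 2-fold lower and 0.09 for all tested genes, in absolute log2 terms.

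Cytokines held the largest single change. Of 23 tested cytokine genes 22 were higher and 0 lower, against 18.3% of all genes called higher, and 19 of them 2-fold, with a median log2 change of 2.27 against -0.29 over all genes. Il1b, the gene of interleukin-1 beta (chromosome 2, 129364570 to 129371139, minus strand), had 2967 and 2598 CPM in KO cells with LPS, against 3.69 and 4.58 CPM in untreated KO cells. Its change of 9.09 was the largest on the log2(CPM + 1) scale (SE 0.13, adjusted p = 5.85e-16). The ratio of means was 674-fold, and by that measure Lif (724.5), Serpinb2 (741.1) and Cish (866.2) stood higher. Its sister gene Il1a had 248 and 199 CPM with LPS, against 0.301 and 0.366 CPM untreated, a change of 7.39.

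Lif, a cytokine of the interleukin-6 family, had 1592 and 1518 CPM with LPS, against 2.31 and 1.99 CPM untreated, a change of 8.95 (SE 0.067). Csf3, which encodes the granulocyte growth factor G-CSF, had 462 and 413 CPM with LPS, against 0.752 and 0.575 CPM untreated, a change of 8.04 (SE 0.084). Tnf (chromosome 17, 35199381 to 35202007, minus strand) was already at 75.5 and 81.8 CPM in untreated KO cells and stood at 4416 and 4292 CPM with LPS. The 2 libraries of a condition lay close together for these genes, and no untreated library came near one with LPS.

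Il6 had 45.2 and 34.0 CPM with LPS, against 0.0501 and 0.0784 CPM untreated, so it rose by 5.24 (SE 0.16) from a few reads. Il27, a subunit of interleukin-27, rose by 5.04 and Osm, of the interleukin-6 family, by 2.94. Anti-inflammatory members moved in the same direction. Il1rn, the interleukin-1 receptor antagonist, had 178 and 228 CPM with LPS, against 13.8 and 22.4 CPM untreated, a change of 3.44. Il10 had 180 reads over both libraries with LPS and 2 over both untreated ones, a ratio of 89.4 with an exact 95% interval of 24.4 to 744, which covers counting error only. Csf1, the macrophage growth factor, rose by 2.27, and Il18 was called higher by 0.19 (adjusted p = 0.0482). Il18 had 13.7 and 10.5 CPM with LPS against 11.0 and 9.80 CPM untreated, so the conditions overlapped. It was not called without the replicate block (adjusted p = 0.31), and after rescaling its change was 0.45. Il15 was the cytokine not called, at 2.45 and 2.95 CPM with LPS and 2.53 and 1.62 CPM untreated, though it was called higher after rescaling (0.47, adjusted p = 0.0123).

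Chemokines were the next group. Of 16 tested genes 15 were higher, 11 of them 2-fold, with a median log2 change of 2.29, and only Cxcl14 was lower, by -0.62. Cxcl2, an attractant of neutrophils (chromosome 5, 90903871 to 90905938, plus strand), had 3105 and 3149 CPM in KO cells with LPS, against 6.62 and 6.59 CPM in untreated KO cells. Its change of 8.68 had the smallest adjusted p of the genes named here (SE 0.045, adjusted p = 3.33e-21). Ccl4 and Ccl3, attractants of monocytes and lymphocytes, varied more between replicates. Ccl4 had 2046 and 2690 CPM with LPS, against 16.0 and 31.9 CPM untreated, and Ccl3 had 1839 and 2526 CPM, against 33.3 and 53.4 CPM. In both genes replicate 2 was higher than replicate 1 with and without LPS, and the changes were 6.63 (SE 0.21) and 5.64 (SE 0.16).

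Ccl22, an attractant of cells with the receptor CCR4, had 118 and 138 CPM with LPS, against 0.1504 and 0.4967 CPM untreated. Ccl5 had 74.6 and 91.6 CPM with LPS, against 0.602 and 0.863 CPM untreated, and Cxcl10, a ligand of CXCR3 that is also interferon-inducible, had 515 and 571 CPM, against 8.25 and 13.1 CPM. Their changes were 6.61, 5.60 and 5.57. Ccl2, the monocyte attractant, stayed low, with 12.4 and 19.3 CPM with LPS against 0.476 and 1.23 CPM untreated, a change of 3.18. Its neighbour Ccl7 had 31 reads over both libraries with LPS and no read untreated, at least 10.1-fold higher against a floor of 3 reads over the group.

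The promoters of 2 chemokines are shown for the motifs of the factors named above. They are RefSeq windows of build GRCm38.p6, 250 bases before to 50 after the start, printed 5′ to 3′ on the gene's strand with motif matches in capitals: Cxcl2 at chr5:90903649-90903948 on the plus strand and Cxcl10 at chr5:92348840-92349139 on the minus strand.
Cxcl2: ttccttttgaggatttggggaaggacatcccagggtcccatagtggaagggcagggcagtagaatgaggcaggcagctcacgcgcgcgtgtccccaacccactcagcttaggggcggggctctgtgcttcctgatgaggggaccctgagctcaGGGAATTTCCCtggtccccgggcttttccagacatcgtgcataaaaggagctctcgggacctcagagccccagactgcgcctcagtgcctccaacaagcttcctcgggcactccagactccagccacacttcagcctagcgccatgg
Cxcl10: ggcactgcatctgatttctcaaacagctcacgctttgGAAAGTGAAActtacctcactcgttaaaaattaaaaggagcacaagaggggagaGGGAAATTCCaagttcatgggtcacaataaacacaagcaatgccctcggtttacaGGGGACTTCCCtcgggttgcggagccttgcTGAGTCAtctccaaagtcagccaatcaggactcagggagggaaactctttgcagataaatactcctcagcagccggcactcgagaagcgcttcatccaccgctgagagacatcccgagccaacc
In Cxcl2 the capitals are 2 overlapping matches to the kappa B consensus, the motif of NF-kB, that begin 97 and 96 bases before the start. In Cxcl10 they are, in order, an interferon-stimulated response element (ISRE, GAAA NN GAAA), 3 kappa B matches of which 2 overlap, and an AP-1 match (TGANTCA). Both strands were searched. Of 17744 RefSeq promoters of this length 9.06% held a kappa B match, 3.43% an ISRE and 7.38% an AP-1 match. A match is a run of letters and does not show binding.

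Enzymes of inflammation had the highest median of the lists, 3.52, with 13 of 15 higher and 2 lower, all of them 2-fold. Irg1, which makes itaconate, had 2767 and 2617 CPM in KO cells with LPS, against 10.4 and 11.8 CPM in untreated KO cells, a change of 7.80 (SE 0.058). Ptgs2, the inducible cyclooxygenase of prostaglandin synthesis, had 1756 and 2115 CPM with LPS, against 31.4 and 45.2 CPM untreated, a change of 5.64. The downstream prostaglandin E synthase Ptges rose by 1.51 and the mitochondrial superoxide dismutase Sod2 by 1.91.

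The prostaglandin pathway moved on its other side as well. Hpgd, the enzyme that breaks down prostaglandins, had 11.49 and 5.92 CPM with LPS, against 201.2 and 118.9 CPM untreated, a change of -4.07 (SE 0.17), the second largest decrease among the genes named. Ptgs1, the constitutive cyclooxygenase, fell by 1.12 on the log2 scale. Replicate 1 of Hpgd was the higher library in both conditions, and the conditions did not overlap.

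A protease and a protease inhibitor on the list were higher. Mmp9, a gelatinase, had 107 and 112 CPM with LPS, against 2.68 and 5.15 CPM untreated, a change of 4.54. Serpinb2, an inhibitor of plasminogen activators, rose by 4.84. It had 2251 reads over both libraries with LPS and 3 over both untreated ones, a ratio of 745 with an exact 95% interval of 255 to 3617 for counting error. Nos2, the inducible nitric oxide synthase, reached only 21.4 and 25.6 CPM with LPS, against 0.276 and 0.131 CPM untreated. Arg2, the mitochondrial arginase, had 6.04 and 5.41 CPM, against 0.602 and 0.314 CPM.

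**Figure D2:**
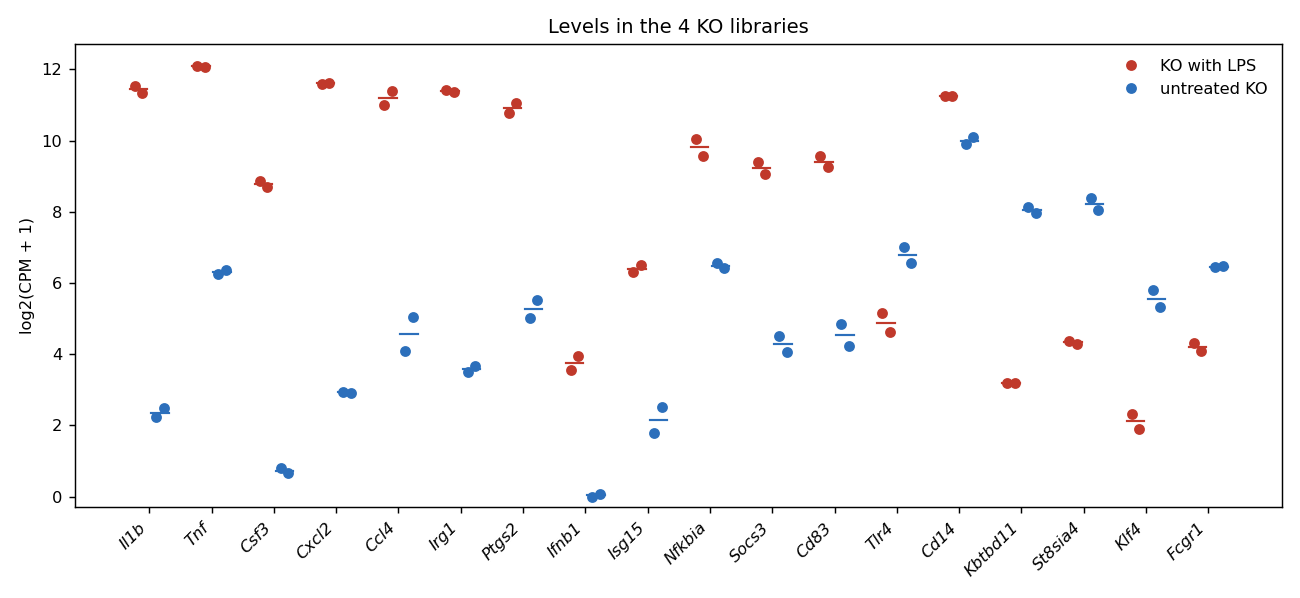
Levels of 18 genes in the 4 KO libraries on the log2(CPM + 1) scale, with KO cells with LPS in red left of untreated KO cells in blue; points are libraries and bars are means. The 12 genes from Il1b to Cd83, and Cd14, lay higher with LPS, while Tlr4, Kbtbd11, St8sia4, Klf4 and Fcgr1 lay lower, and no gene overlapped between conditions.

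The NF-kB list holds the subunits and the inhibitors that NF-kB itself induces. Of 19 tested members 16 were higher, 14 of them 2-fold, and 1 was lower, with a median log2 change of 2.26. The inhibitors and the subunits were both higher. Nfkbiz, the nuclear protein I-kappa-B zeta, had 1229 and 1005 CPM in KO cells with LPS, against 12.03 and 11.68 CPM in untreated KO cells, a change of 6.44. Tnfaip3, the deubiquitinase A20, had 634 and 519 CPM, against 13.6 and 16.8 CPM, a change of 5.16. Nfkbia, I-kappa-B alpha, had 1060 and 760 CPM, against 92.7 and 84.0 CPM, a change of 3.33 (SE 0.099).

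Among the subunits Rel rose by 3.40, Nfkb1 by 2.16 and Relb by 2.04, while Rela, the constitutive subunit, had 82.9 and 76.6 CPM with LPS, against 61.8 and 64.9 CPM untreated, a change of 0.33. Traf1, an adaptor of TNF receptors, rose by 5.12. Cyld, another deubiquitinase that restrains the pathway, was the lower member, at 37.0 and 38.4 CPM with LPS against 66.6 and 62.8 CPM untreated. The promoter of Nfkbia, at chr12:55492598-55492897 on the minus strand, held 1 kappa B match, in capitals, that begins 29 bases before the start.
Nfkbia: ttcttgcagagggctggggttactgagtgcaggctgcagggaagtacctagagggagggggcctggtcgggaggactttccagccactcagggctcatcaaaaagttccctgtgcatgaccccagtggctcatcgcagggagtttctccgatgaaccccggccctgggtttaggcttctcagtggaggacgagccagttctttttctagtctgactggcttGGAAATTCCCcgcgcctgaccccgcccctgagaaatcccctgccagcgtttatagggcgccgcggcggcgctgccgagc
This match ended before the start, and no ISRE or AP-1 match was in the window.

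The receptor for LPS and its proximal signalling genes changed in both directions. Of 28 tested members 15 were higher and 9 lower, 7 and 2 of them 2-fold, with a median log2 change of 0.17. Tlr4 itself had 34.7 and 23.7 CPM in KO cells with LPS, against 129 and 94.3 CPM in untreated KO cells, a change of -1.91 (SE 0.057). Cd14, its co-receptor, had 2427 and 2424 CPM with LPS, against 955 and 1099 CPM untreated, a change of 1.24. Ly96, which encodes the LPS-binding MD-2, was not called, at 4.84 and 3.82 CPM with LPS and 4.01 and 3.37 CPM untreated, but was called higher after rescaling (0.40, adjusted p = 0.00155). The list then had 19 members higher and 8 lower.

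Inside the cell the ubiquitin ligase Peli1 rose by 3.51, the kinase Ikbke by 2.62, Ticam1, which encodes the adaptor TRIF, by 1.84 and the kinase Irak2 by 1.40. Tab1, a partner of the kinase TAK1, fell by 1.33 on the log2 scale. Other pattern recognition receptors also split, with 10 of 15 higher and 5 lower, 5 and 3 of them 2-fold, and a median log2 change of 0.41. Nlrp3, the inflammasome sensor, had 1310 and 1319 CPM with LPS, against 90.2 and 105 CPM untreated, and the bacterial peptide sensor Nod2, the lectin receptor Clec4e and Tlr2 rose by 3.24, 3.03 and 1.38. Tlr13 and Tlr8, both endosomal, went the other way. Tlr13, a sensor of bacterial ribosomal RNA, had 7.10 and 5.57 CPM with LPS, against 73.9 and 51.9 CPM untreated, and Tlr8 fell by 2.20 on the log2 scale.

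**Figure D3:**
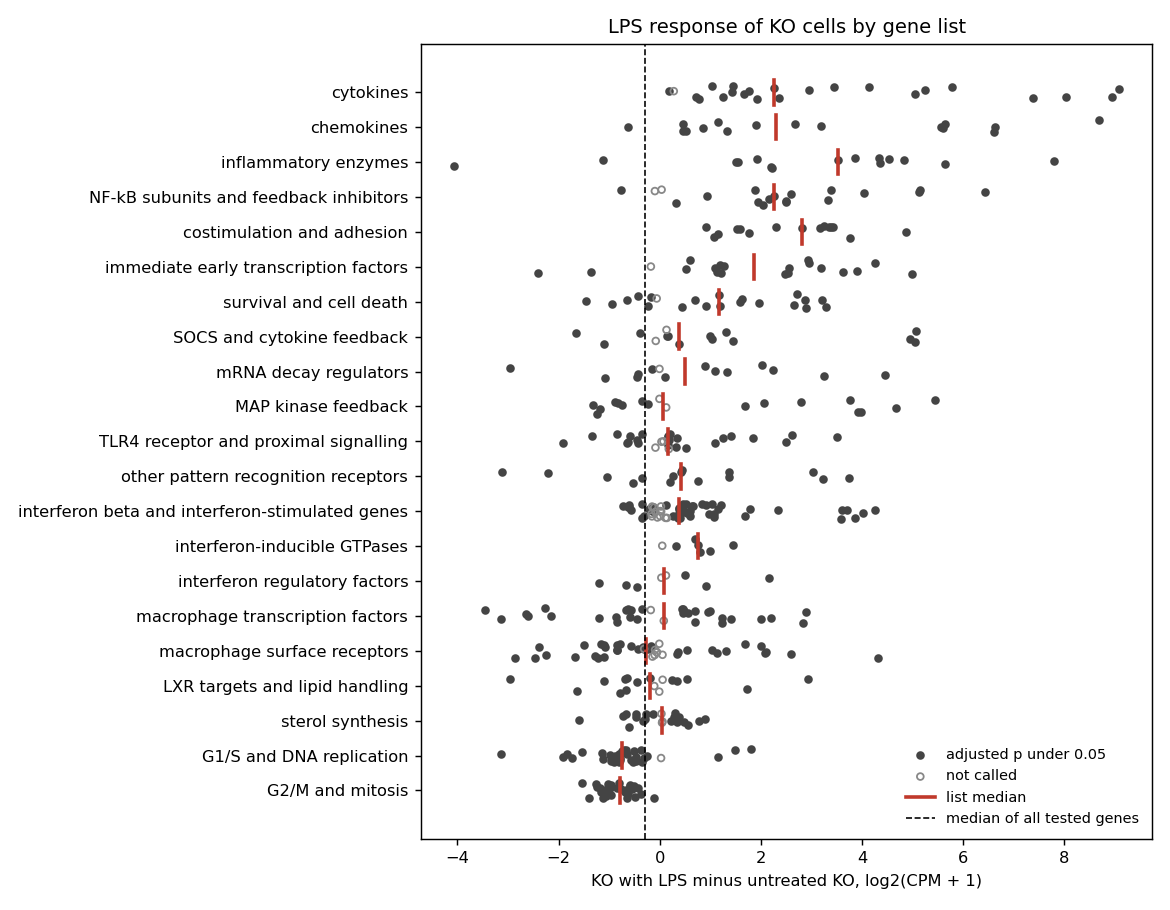
Each row is a gene list and each point a tested member, placed by its change of KO cells with LPS minus untreated KO cells on the log2(CPM + 1) scale; filled points are called, open points are not, red bars are list medians and the dashed line is the median of all tested genes, -0.29. List medians run from 3.52 for inflammatory enzymes to -0.79 for genes of G2/M and mitosis.

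Immediate early transcription factors were largely higher at 2 h, with 17 of 20 higher, 15 of them 2-fold, 2 lower, and a median log2 change of 1.87. Myc had 165 and 156 CPM in KO cells with LPS, against 3.16 and 5.15 CPM in untreated KO cells, a change of 5.0. Ier3, Egr2 and Maff, a survival gene, a zinc-finger factor and a small Maf factor, rose by 4.26, 3.91 and 3.63. Junb had 926 and 430 CPM with LPS, against 92.0 and 71.8 CPM untreated, so its libraries with LPS lay apart by more than those without.

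Fos and Jun, which form the AP-1 factor, were the lower members. Fos had 13.2 and 14.1 CPM with LPS, against 76.3 and 77.1 CPM untreated, a change of -2.41, and Jun had 20.01 and 11.54 CPM, against 45.02 and 36.83 CPM, a change of -1.36. The list of MAP kinase feedback had 8 of 18 members higher and 8 lower, 8 and 3 of them 2-fold, with a median log2 change of 0.06. Of all tested genes 18.3% were called higher and 62.2% lower. After rescaling 10 members were higher and 6 lower. The dual-specificity phosphatase Dusp5 had 82.6 and 72.1 CPM with LPS, against 0.752 and 0.863 CPM untreated, a change of 5.44, and Gadd45b, Dusp1 and Dusp2 rose by 4.68, 3.99 and 3.76. Dusp6 had 14.2 and 14.7 CPM, against 43.7 and 31.7 CPM, and fell by 1.31 on the log2 scale.

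Regulators of mRNA decay act on the AU-rich elements and stem loops of cytokine transcripts. Of 14 tested members 8 were higher and 5 lower, 6 and 2 of them 2-fold, with a median log2 change of 0.50. Zc3h12a, the endonuclease regnase-1, rose by 4.45 and Zfp36, tristetraprolin, by 2.25, with 200.8 and 223.6 CPM in KO cells with LPS, against 43.1 and 44.5 CPM in untreated KO cells. Its relative Zfp36l2 had 25.8 and 19.3 CPM with LPS, against 220 and 150 CPM untreated, a change of -2.97. Btg2, which recruits the deadenylase, rose by 2.02.

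Feedback inhibitors of cytokine receptors had 10 of 15 members higher and 3 lower, 7 and 2 of them 2-fold, with a median log2 change of 0.39. Socs3 had 681 and 536 CPM with LPS, against 21.8 and 15.7 CPM untreated, a change of 4.96 (SE 0.083). Pim1, a kinase induced through STAT factors, rose by 5.06, with 445 and 391 CPM, against 12.6 and 10.5 CPM. Cish had 2626 reads over both libraries with LPS and 3 over both untreated ones, a ratio of 870 with an exact 95% interval of 297 to 4219. Socs1 remained low, at 1.42 and 1.38 CPM with LPS and 0.125 and 0.209 CPM untreated.

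Surface proteins of costimulation and adhesion were all higher: 15 of 15 tested members, 14 of them 2-fold, with a median log2 change of 2.82. Cd83, a marker of activated antigen-presenting cells, had 756 and 613 CPM in KO cells with LPS, against 27.7 and 17.8 CPM in untreated KO cells, a change of 4.88. Fas, Cd40 and Cd69 rose by 3.77, 3.43 and 3.38, and Icam1, the ligand of leukocyte integrins, had 779 and 741 CPM, against 97.5 and 116 CPM. Of the ligands of CD28, Cd80 rose by 2.29 and Cd86 by 1.15.

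Genes of survival and cell death had 14 of 21 members higher and 6 lower, 11 and 1 of them 2-fold, with a median log2 change of 1.18. Malt1, a protease of NF-kB activation, rose by 3.28, and Cflar, the inhibitor of caspase-8, by 2.66. The pro-apoptotic Bcl2l11, which encodes BIM, had 175 and 156 CPM with LPS, against 25.4 and 23.0 CPM untreated, a change of 2.72. Bcl2 went the other way, at 4.26 and 3.58 CPM with LPS against 11.9 and 12.9 CPM untreated. Bcl2a1b rose by 3.20, with the limit that reads without a unique alignment were left out. Such reads can include those shared by near-identical Bcl2a1 copies.

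Interferon-stimulated genes had a lower median change than cytokines, chemokines and inflammatory enzymes. Interferon beta itself, Ifnb1 (chromosome 4, 88522025 to 88522774, minus strand), stood at 10.7 and 14.4 CPM in KO cells with LPS, against 0 and 0.0523 CPM in untreated KO cells. These were 1001 reads against 2, a ratio of 497 with an exact 95% interval of 137 to 4111. The list with its stimulated genes had 35 of 58 members higher and 11 lower, 14 and 0 of them 2-fold, with a median log2 change of 0.39. After median-of-ratios rescaling 46 were higher and 5 lower. Both subunits of the interferon receptor were lower, Ifnar2 by -1.10 with 45.7 and 40.1 CPM against 97.8 and 88.0 CPM, and Ifnar1 by -0.31, a call that was lost after rescaling and a value that lay at 0.0075 with DESeq2.

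The members that rose most were antiviral effectors and sensors. Isg15, a ubiquitin-like modifier, had 78.7 and 89.3 CPM with LPS, against 2.48 and 4.70 CPM untreated, a change of 4.25. Oasl1, Ifih1, which encodes the RNA sensor MDA5, and Slfn2 rose by 4.01, 3.86 and 3.61. Ifit1 had 37.1 and 43.7 CPM, against 2.16 and 2.80 CPM, a change of 3.58. Mx2, an antiviral GTPase, and Rsad2, viperin, rose by 2.33 and 1.78. Other members fell: the RNA-binding Ifit2 had 4.65 and 7.51 CPM, against 9.80 and 9.54 CPM, a change of -0.62, and the peptide transporter Tap1 fell by 0.73 on the log2 scale.

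The promoter of Isg15, at chr4:156200769-156201068 on the minus strand, held 3 overlapping ISRE matches, in capitals, that begin 78, 72 and 66 bases before the start.
Isg15: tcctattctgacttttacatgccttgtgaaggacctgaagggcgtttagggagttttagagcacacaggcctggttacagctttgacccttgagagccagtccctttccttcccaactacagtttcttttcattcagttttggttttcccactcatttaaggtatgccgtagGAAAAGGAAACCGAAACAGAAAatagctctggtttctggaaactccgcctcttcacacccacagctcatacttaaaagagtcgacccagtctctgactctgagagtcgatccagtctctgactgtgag
It held no kappa B or AP-1 match, in contrast with Cxcl10 above.

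The interferon-inducible GTPases, which act on vacuoles of intracellular pathogens, spanned a wide range of levels. Of 15 symbols 7 passed the minimum level, and 6 of these were higher, 1 of them 2-fold, with a median log2 change of 0.75. Irgm1 held most of the summed level, with 58.3 and 73.8 CPM with LPS, against 33.7 and 41.4 CPM untreated, a change of 0.80. Gbp3 had 3.17 and 2.79 CPM with LPS, against 0.401 and 0.523 CPM untreated, and Gbp5 had 1.28 and 1.33 CPM, against 0.201 and 0.131 CPM. Among 8 tested interferon regulatory factors 3 were higher and 3 lower, with a median log2 change of 0.08. Irf4 rose by 2.15 and Irf7 by 0.92, Irf8, a factor of macrophage identity, fell by 1.2 on the log2 scale, and Irf1 was not called, with 25.7 and 26.3 CPM, against 23.4 and 24.2 CPM. After rescaling Irf1 was called higher (0.39, adjusted p = 0.00094).

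The PARP family, to which Parp14 belongs, held 2 higher and 13 lower members of 18, against 18.3% and 62.2% of all tested genes. Its median log2 change of -0.27 was close to the -0.29 of all tested genes. After rescaling 6 members were higher and 6 lower. The members that rose 2-fold were Parp14 itself and Tiparp, an inducible mono-ADP-ribosyltransferase, with 57.4 and 59.7 CPM with LPS against 27.2 and 23.2 CPM untreated. Parp1, the main nuclear poly-ADP-ribose polymerase, fell by 0.70 on the log2 scale. Parp9 and its partner Dtx3l, which are transcribed beside Parp14, had changes of -0.13 and -0.05, and both were above 0 after rescaling, at 0.15 and 0.23.

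The largest decrease among the genes named was that of Kbtbd11, a BTB and Kelch domain protein. The gene (chromosome 8, 15011025 to 15033333, plus strand) had 8.15 and 8.17 CPM in KO cells with LPS, against 278 and 248 CPM in untreated KO cells, a change of -4.85 (SE 0.082, adjusted p = 1.94e-15). St8sia4, a polysialyltransferase, had 19.8 and 18.5 CPM with LPS, against 336 and 263 CPM untreated, a change of -3.89 (SE 0.071). Sesn1, a stress-inducible inhibitor of mTORC1 signalling, fell by 3.49 and the ubiquitin ligase Rnf144b by 3.20 on the log2 scale. The other leading decreases were in Fam78a, the cell cycle factor E2f2, the adaptors Tifa and Shb, Frmd4b and Zfp324, between -3.02 and -3.18.

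Of 33 macrophage transcription factors 16 were higher and 15 lower, 7 in each direction 2-fold, with a median log2 change of 0.08. The share lower was thus under the 62.2% of all tested genes. Klf4 had 4.03 and 2.74 CPM with LPS, against 54.8 and 39.1 CPM untreated, a change of -3.45 (SE 0.094). Bhlhe41, a repressor, and Id2, an inhibitor of helix-loop-helix factors, fell by 3.13 and 2.61 on the log2 scale. Spi1, the lineage factor PU.1, had 542 and 521 CPM, against 258 and 278 CPM, and Cebpd had 99.9 and 36.9 CPM, against 10.6 and 5.41 CPM. The large zinc-finger factor Hivep3 rose by 2.88.

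Surface receptors of macrophages had 12 of 42 members higher and 22 lower, 9 and 12 of them 2-fold, with a median log2 change of -0.27, close to that of all genes. After rescaling 16 were higher and 17 lower. Tgfbr2, the receptor of TGF-beta, had 40.4 and 41.4 CPM with LPS, against 231 and 233 CPM untreated, a change of -2.47 (SE 0.04). The Fc receptor Fcgr1, the chemokine receptor Ccr2 and S1pr1, which binds sphingosine-1-phosphate, fell by 2.25, 2.39 and 2.86 on the log2 scale. Gpr183, a receptor for oxysterols, had 9.49 and 8.10 CPM, against 89.1 and 86.5 CPM, a change of -3.18.

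Other receptors rose. Ccrl2, a decoy-like receptor for chemerin, had 40.4 and 37.6 CPM with LPS, against 1.10 and 0.915 CPM untreated, and the complement receptor C5ar1 and the receptor kinase Axl rose by 2.1 and 2.01. Csf1r, the receptor of the macrophage growth factor, fell by 0.85 on the log2 scale, with 1195 and 1198 CPM against 2046 and 2279 CPM. The macrophage markers Itgam, Adgre1 and Cd68 had changes of -0.09, -0.06 and -0.11 and lay above 0 after rescaling. Of 5 tested osteoclast markers 2 were higher and 1 lower. The higher ones were the fusion genes Ocstamp and Dcstamp, which rose by 2.83 and 2.19. The lower one was the transcription factor Nfatc1, with 34.89 and 46.25 CPM with LPS against 76.08 and 85.53 CPM untreated, a change of -0.99. The list median was 0.03, and its summed level was 85.9 and 113 CPM with LPS and 84.3 and 99.0 CPM untreated.

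Cell cycle genes fell together. Of 30 tested genes of G2/M and mitosis all 30 were lower, against 62.2% of all genes called lower, and 10 of them 2-fold. The median log2 change was -0.79. After rescaling 28 were lower and 1 higher, only 2 were 2-fold lower, and the median was -0.52. Mki67, the proliferation marker, had 575 and 647 CPM in KO cells with LPS, against 1318 and 1428 CPM in untreated KO cells, a change of -1.17 (SE 0.061). The kinases Ttk and Plk1 and the centromere protein Cenpf fell by 1.54, 1.25 and 1.40 on the log2 scale. Of 35 genes of G1/S and DNA replication 31 were lower, 7 of them 2-fold, and 3 higher, with a median log2 change of -0.74. After rescaling 27 were lower, 5 of them 2-fold, and 4 higher, with a median of -0.47. Thymidine kinase Tk1 had 52.8 and 52.8 CPM, against 197 and 209 CPM, a change of -1.92, and the replication licensing factor Cdc6 and cyclin Ccne1 fell by 1.84 and 1.54 on the log2 scale. The 3 called higher before rescaling were Cdkn1a, the inhibitor p21, with 460 and 515 CPM against 117 and 165 CPM, Cdk6 and Ccnd2. The kinase Cdk6 rose by 1.48 and Ccnd2 by 1.15.

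Metabolic and stress lists were mixed. LXR targets and lipid handling genes had 5 of 17 members higher and 9 lower (median log2 change -0.18), among them a pair of cholesterol exporters that moved in opposite directions. Abca1 had 282 and 247 CPM in KO cells with LPS, against 33.8 and 33.9 CPM in untreated KO cells, a change of 2.92, and Abcg1 had 17.5 and 15.9 CPM, against 145 and 128 CPM, a change of -2.96. Sterol synthesis genes had 10 of 23 higher and 10 lower (median 0.05). Idi1 rose by 0.89, and Dhcr7, of the last step to cholesterol, fell by 1.59 on the log2 scale.

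NRF2 antioxidant genes had 7 of 15 members higher and 4 lower (median log2 change 0.12), with Srxn1 higher by 1.35. Glycolysis and hypoxia genes had 7 of 22 higher and 12 lower (median -0.16), with Pdk1, which restrains pyruvate oxidation, at -1.16. Genes of the unfolded protein and amino acid stress responses had 6 of 20 higher and 12 lower (median -0.19). Herpud1, of endoplasmic reticulum degradation, rose by 1.53, and Xbp1 fell by 0.80 on the log2 scale. MHC class II and dendritic cell genes had 5 of 10 higher and 2 lower (median 0.42), with the invariant chain Cd74 at 230 and 184 CPM, against 136 and 137 CPM. The counts of these metabolic and stress lists stand against 18.3% of all genes called higher and 62.2% called lower. They shift with the scaling, since most members changed by less than 1. After rescaling, LXR genes had 8 higher and 7 lower, sterol synthesis 14 and 6, and NRF2 genes 11 and 3. Glycolysis and hypoxia then had 11 and 5, the unfolded protein and amino acid list 10 and 6, and MHC class II 7 and 2.

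Some of the genes with large increases were among the most abundant RNAs per kilobase of exons. Ranks leave out predicted genes, symbols turned into dates and symbols without a gene model. The secreted phosphoprotein Spp1, osteopontin, was chosen here after its values were seen: it stood first per kilobase in KO cells with LPS and at rank 9 in untreated KO cells. Its change was smaller, 1.73 (SE 0.19), with 8788 and 11690 CPM with LPS against 2162 and 4332 CPM untreated. Ccl4, Ccl3 and Tnf stood at ranks 4, 8 and 9 with LPS and at ranks 1395, 845 and 1003 untreated. Cxcl2 and Il1b stood at ranks 18 and 19 with LPS and at 7641 and 8301 untreated. Other large increases were at lower levels: Il1a and Ccl22 had 113 and 55.0 CPM per kilobase with LPS, against 1459 for Il1b.

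Genes with the largest increases were short. The median genomic span was 6.76 kb for the 49 genes with a change of 4 or more, 18.3 kb for all genes 2-fold higher, 28.4 kb for genes 2-fold lower and 22.8 kb for all tested genes. The median number of exon blocks was 5, 7, 10 and 10 in the same order. These are descriptions of gene models of GENCODE M21 on GRCm38, with no test. Motif shares were not compared between these groups, since a promoter was matched for 76.3% of the genes 2-fold higher and 71.4% of the 49.

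**Figure D4:**
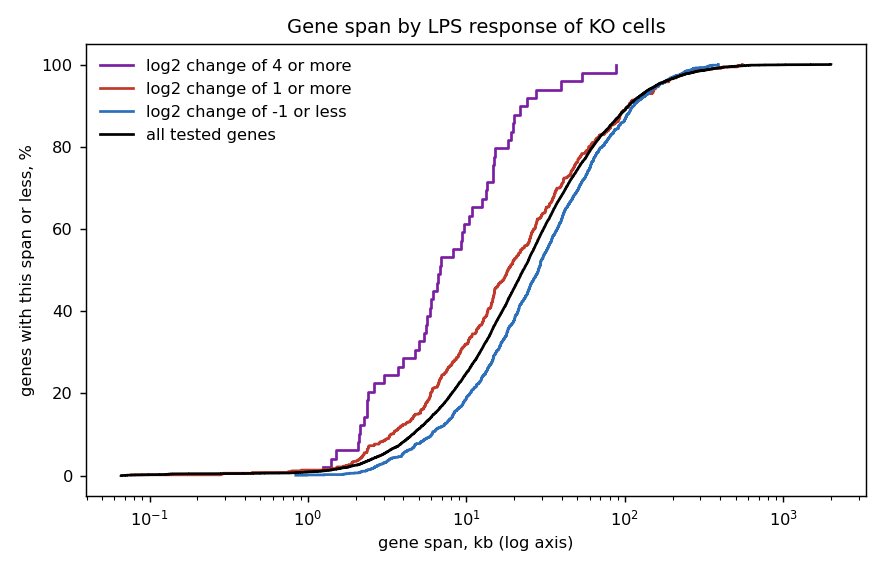
Cumulative share of genes (y axis, %) by genomic span (x axis, kb on a log axis) for 4 sets defined by the change of KO cells with LPS minus untreated KO cells. The curve of the 49 genes with a log2 change of 4 or more lies left of the others, with a median of 6.76 kb, and that of genes with a change of -1 or less lies right, with a median of 28.4 kb.

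The last comparison asked where the response of KO cells differed from that of WT cells, as the LPS change in KO minus the LPS change in WT. Interferon-stimulated genes, GTPases and part of the chemokines responded less in KO cells, while Osm, Ier3 and Bcar3 responded more. The difference was above 0 for 182 tested genes (1.67%) and below 0 for 231 (2.12%). Without the replicate block it was called for 14 and 31 genes, all of them among the genes called with the block, and 19 of the 49 genes of this text with a called difference were called in both fits. The KO and WT groups are separate libraries, and the labels do not give the number of clones, so clone and genotype cannot be told apart.

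Of the 524 genes 2-fold higher in KO cells 61 had a larger and 53 a smaller response than in WT, and of the 1239 genes 2-fold lower 44 fell further and 19 less far. The leading mediators were not called: Il1b, Tnf, Cxcl2, Irg1, Nfkbia and Socs3 had differences of -0.31, -0.09, -0.16, 0.05, 0.18 and 0.26, with adjusted p of 0.501, 0.762, 0.229, 0.846, 0.629 and 0.323. A p that misses the threshold does not show that the responses were alike.

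In the interferon list 41 of 58 members had a smaller response in KO than in WT and 0 a larger one, and 57 of 58 differences were below 0, against 48.7% of all tested genes. The list median was 0.39 in KO and 0.99 in WT. Without the replicate block 8 members were called smaller, with edgeR 37, with DESeq2 31, and over the leave-one-out fits 30 to 36. All 7 tested GTPases had a smaller response, and 7 remained with any library left out, but 4 were called without the replicate block, with edgeR or with DESeq2.

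Rsad2 had 7.01 and 10.6 CPM in KO cells with LPS against 1.45 and 2.22 CPM in untreated KO cells, and 48.6 and 54.8 CPM in WT cells with LPS against 2.71 and 3.90 CPM in untreated WT cells, a difference of -1.85 (SE 0.12, adjusted p = 8.39e-06). Ifit2 changed in opposite directions, by -0.62 in KO and 1.11 in WT, a difference of -1.73. Irf1, not called in KO, had 95.4 and 82.9 CPM in WT with LPS against 28.4 and 24.4 CPM untreated, a difference of -1.59. Ifnb1 itself was at 31.7 and 27.7 CPM in WT with LPS, and its difference was -1.19 (adjusted p = 0.00102), a call that was lost with edgeR and DESeq2. For Gbp5 the difference was -2.06 and for Ifit1 it was -1.35.

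Of 16 chemokines 7 had a smaller response in KO and 0 a larger one, but 2 were called smaller without the replicate block, 0 with edgeR and 1 with DESeq2. Cxcl11 and Ccl5 had differences of -1.90 and -1.01. Ccl2 had 127 and 136 CPM in WT cells with LPS and 4.74 and 6.75 CPM in untreated WT cells. Its lower level in KO was thus there before LPS. The difference of the changes was -1.12, with untreated KO levels near 1 CPM, where the scale understates the ratio. For Ccl2 it was not called without the replicate block (adjusted p = 0.582). Csf1 had 34.1 and 35.7 CPM in WT with LPS against 0.887 and 0.850 CPM untreated, a difference of -2.0. Prdm1, the repressor Blimp-1, had a difference of -1.67. It had 7.87 and 7.65 CPM in KO with LPS against 0.0251 and 0.0523 CPM untreated. In WT it had 30.9 and 28.1 CPM with LPS against 0.0761 and 0.1999 CPM untreated. With untreated levels near 0, this difference follows the levels after LPS and does not show a smaller ratio. Cd40 had 107 and 112 CPM in KO and 110 and 137 CPM in WT with LPS, and its difference of -1.41 came with untreated levels of 9.83 and 8.78 CPM in KO and 3.27 and 3.40 CPM in WT.

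On the log2(CPM + 1) scale, differences above 0 were led by Serpinb2, Mmp9, Arg2, Osm, Csf3, Bcar3 and Tnfrsf8. In that order they were 2.21, 1.70, 1.38, 1.35, 1.32, 1.30 and 1.24. The mean level of Tnfrsf8 rose from 0.7241 to 5.856 CPM in KO cells and from 0.1134 to 0.8927 CPM in WT cells. With untreated levels under 1 CPM, its difference follows the levels after LPS and does not show a larger ratio in KO. Osm had 30.6 and 25.2 CPM in KO with LPS against 2.93 and 2.56 CPM untreated, and 11.50 and 10.02 CPM in WT with LPS against 3.63 and 2.25 CPM untreated. Ier3 had 407 and 350 CPM in KO with LPS and 166 and 163 CPM in WT with LPS, from untreated levels of 17.9 and 19.7 CPM in KO and 17.8 and 19.8 CPM in WT. Bcar3, an adaptor of integrin signalling, reached like levels with LPS, 45.8 and 48.4 CPM in KO and 45.8 and 43.1 CPM in WT, but its untreated levels were 14.2 and 16.6 CPM in KO and 34.6 and 39.7 CPM in WT.

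For 5 named genes near 0 in an untreated group the sign depended on the scale. Serpinb2, Mmp9, Cish and Csf3 had differences above 0 on the log2(CPM + 1) scale, yet below 0 on the ratio scale of edgeR (-1.14, -1.42, -2.85 and -0.09) and DESeq2 (-0.60, -1.44, -2.32 and -0.11). Mmp9 had 0.0507 and 0.125 CPM in untreated WT cells and 6.0 and 7.63 CPM with LPS, so its level after LPS was higher in KO cells while its ratio to untreated cells was not. The same held the other way for Ccl7, at -1.95 against 0.41 with edgeR. Of the 49 genes of this text with a called difference 29 kept sign and call with edgeR.

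Among the decreases Hpgd had the largest difference, -2.94. It was nearly absent from WT cells, at 0.197 and 0.0731 CPM with LPS and 2.16 and 0.925 CPM untreated, so the WT change of -1.12 was bounded by the scale. Ccr2 was likewise higher in untreated KO cells, at 79.3 and 42.9 CPM, than in untreated WT cells, at 6.49 and 4.32 CPM, with a difference of -1.96. Gpr183 fell further in KO, by a difference of -1.15, from untreated levels of 89.1 and 86.5 CPM in KO and 94.4 and 98.9 CPM in WT. Tlr4 fell less far in KO, by a difference of 0.53, and so did Cxcr4, by 1.21 (adjusted p = 0.0498). Cxcr4 had 0.111 and 0.187 CPM in KO with LPS against 1.88 and 1.07 CPM untreated. In WT it had 0.197 and 0.171 CPM with LPS against 7.35 and 3.05 CPM untreated. Both changes of Cxcr4 were thus bounded by the scale. Its call was lost after rescaling (adjusted p = 0.0543), and neither Tlr4 nor Cxcr4 was called without the replicate block.

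**Figure D5:**
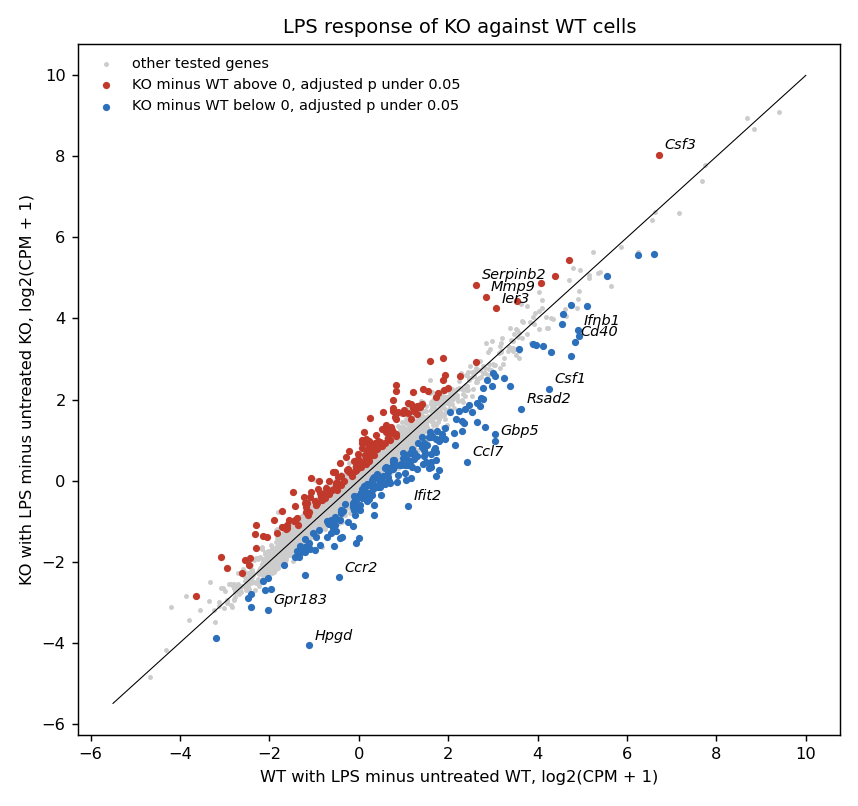
Change with LPS in KO cells (y axis) against the change in WT cells (x axis) for 10899 tested genes, both on the log2(CPM + 1) scale, with the line of equal change. Red points (182) had a called difference above 0 and blue points (231) below 0; Hpgd, Csf1 and Gbp5 lie below the line and Ier3 above it, as do Csf3 and Serpinb2, whose sign turned with edgeR.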

How the data were processed

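RNA was sequenced from mRNA libraries of RAW 264.7 cells. Values were deposited as CPM per symbol. Per the submitters' processing notes, the authors aligned reads with TopHat2 2.1.0 to mm10 (GRCm38) and used HTSeq and edgeR for read counts and their scaling. The labels give no annotation and no strand setting, so overlapping and antisense genes cannot be told apart. Multiplied out, 100% of values came to whole reads within 0.02 reads. The 5 summary lines were dropped and each library was rescaled to its gene reads. These were 58.9 to 59.9% of all counted in the KO libraries and 61.5 to 64.0% in the WT libraries compared. The dropped line of alignments that were not unique held 33.2 to 34.9% in the KO libraries and 28.7 to 32.1% in these WT libraries. A further 4 per-sample columns matched no sample label and were not used, 27 symbols had been turned into dates and were not named, and 0 mitochondrial genes were listed.

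The test, for genes reaching 1 CPM in 2 or more libraries, was limma 3.58.1 in R 4.3.3 on log2(CPM + 1), with a trend, 6 group means and the replicate number as a block in a fit of 12 libraries (5 residual and 8.91 prior degrees of freedom), after a check on simulated data. The labels do not say what a number shares. As a check of the pairing, the replicate 1 minus 2 differences of any 2 groups were correlated across genes, and r was 0.536 to 0.823 over 15 pairs and 0.697 between KO with LPS and untreated KO. Replicates of a group had r of at least 0.995 and differed by more than sampling noise.

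The members and the 32 gene lists were chosen with earlier results of these data known, so no list is independent support. Genes named were the 15 largest changes in each direction with at least 5 CPM and no overlap, the 8 largest differences in each direction, members of lists and genes followed for their role; predicted genes were not named, and some members of lists are not reported here. Alternatives were median-of-ratios rescaling, CPM as deposited, a pseudocount of 0.25, no filter or one of 5 CPM, no block, only the groups compared, each library left out, and edgeR 4.0.16 (quasi-likelihood) and DESeq2 1.42.0 on the recovered counts. Positions are from GENCODE M21 and promoters from RefSeq.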

Additional observations from a re-analysis of the deposited data

Results flagged for a closer look

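The difference of the LPS response between KO and WT cells passed the test (limma, adjusted over 10899 genes) for 49 genes of the text, 16 above and 33 below 0 on the log2 scale, and 19 of the 49 also without the replicate block. Each is a difference of changes and does not say in which condition the groups differed. Among interferon-stimulated genes and their regulators, Gbp5 had -2.06, Cxcl11 -1.90, Rsad2 -1.85, Ifit2 -1.73, Irf1 -1.59, Ifit1 -1.35, Gbp3 -1.19 and Irgm1 -0.92. Ifnb1 was at -1.19, Mx2 at -1.04, Tap1 at -0.76, Cxcl10 at -0.68 and Irf7 at -0.41. Parp14 had -0.35, Parp9 -0.50 and its partner, the ubiquitin ligase Dtx3l, -0.90.

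Secreted mediators and their enzymes with a smaller response were Csf1 (-2.0), Ccl7 (-1.95), Ccl2 (-1.12), Il15 (-1.03), Ccl5 (-1.01), Ptges (-0.66) and Il27 (-0.50). Receptors and surface genes below 0 were Ccr2 (-1.96), Cd40 (-1.41), Gpr183 (-1.15), Ccrl2 (-0.78), Adgre1 (-0.35) and Tgfbr2 (-0.32). The remaining genes below 0 were Hpgd (-2.94), Prdm1 (-1.67), Tifa (-0.70) and St8sia4 (-0.69).

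Above 0 were Serpinb2 (2.21), Mmp9 (1.70), Arg2 (1.38), Osm (1.35), Csf3 (1.32), Bcar3 (1.30) and Tnfrsf8 (1.24). Cxcr4 had 1.21, Ier3 1.2, Dusp6 1.01, Cd83 0.80, Dusp5 0.73, Il10 0.70, Cish 0.67, Tlr4 0.53 and Abca1 0.31. Of these, Serpinb2, Mmp9, Cish and Csf3 turned below 0 with edgeR. Mean untreated KO levels were under 1 CPM for Serpinb2, Csf3, Cish, Tnfrsf8, Arg2, Dusp5 and Il10. The same held below 0 for Gbp5, Gbp3, Cxcl11, Ifnb1, Csf1, Ccl7, Ccl5, Ccl2, Il27 and Prdm1. The log2(CPM + 1) scale understates the ratios of all these genes. For Tnfrsf8 and Il10 the untreated WT level was lower still, so a difference above 0 does not show a larger ratio in KO.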

How the results depend on the processing

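The counts of calls in KO cells kept within 1.5 times of the values given under CPM as deposited, both filters, the other pseudocount, no replicate block (1518 higher, 5748 lower) and the groups compared alone. Median-of-ratios rescaling gave 3857 higher and 4383 lower, and 685 genes 2-fold lower. EdgeR gave 3972 and 4278, with 806 genes 2-fold higher, and DESeq2 gave 3913 and 3758, with 821; both set their own scale for the libraries. With each library left out 1729 to 1842 genes were higher and 6239 to 6319 lower, 499 to 546 and 1207 to 1288 of them 2-fold.

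The KO minus WT difference was less stable. No replicate block gave 14 above and 31 below 0, and 30 of the 49 named genes lost their call, while no filter gave 97 above 0. The labels give the pairing only as a number. With each library left out 99 to 171 differences were above and 133 to 180 below 0. The counts above 0 were 99 without KO with LPS replicate 1, 102 without untreated WT replicate 1, 103 without untreated KO replicate 1 and 117 without untreated KO replicate 2. Those below 0 were 133 without untreated KO replicate 1, 148 without KO with LPS replicate 1, 149 without untreated WT replicate 2 and 140 without WT with LPS replicate 2. A fit with a library left out has fewer degrees of freedom.

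Some small changes turned sign with the scale. Under rescaling, edgeR and DESeq2, Parp9 was at 0.15, 0.17 and 0.19, Dtx3l at 0.23, 0.25 and 0.27, Itgam at 0.18, 0.20 and 0.22, Adgre1 at 0.21, 0.23 and 0.26, and Cd68 at 0.17, 0.19 and 0.21. Ifnar1 was at 0.0075 with DESeq2. With a library left out Dtx3l ranged from -0.13 to 0.038 and Itgam from -0.20 to 0.013. The KO minus WT difference turned with edgeR and DESeq2 for Csf3 (-0.089 and -0.11), Serpinb2 (-1.14 and -0.60), Mmp9 (-1.42 and -1.44) and Cish (-2.85 and -2.32), and with edgeR for Ccl7 (0.41). Reads limit the low genes: a gene with 3 reads untreated has a ratio with a wide interval.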
